A study of Homo sapiens with 6 samples.

Results

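The 53 genes described here are the cyclins, the cyclin-dependent kinases (CDKs), the CDK inhibitors, the CDC25 phosphatases and the RB and E2F families. They were chosen by gene symbol among the 60660 gene rows of the count tables, and 52 of them had enough reads to be tested. The remaining one, CCND2 (cyclin D2), had 0 counts in all 6 libraries, and a count of 0 allows up to 3 counts in a library. The question was how these genes differed, phase by phase of the cell cycle, between control cells and cells with less LINC01133, a long non-coding RNA.

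The cells were 12Z, an immortalized epithelial cell line from an endometriosis lesion, so all 6 libraries share 1 genetic background. In the control group, 3 libraries came from 12Z cells transfected with a non-targeting siRNA. In the knockdown group, 3 libraries came from 12Z cells transfected with 10 nM of the siRNA LINC01133a, the only LINC01133 siRNA sequenced. All cells were taken 72 h after transfection, and polyadenylated RNA was sequenced. Lines of this kind were commonly immortalized with the SV40 large T antigen, which binds the RB family proteins and p53. The labels do not say how 12Z was made.

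D-type cyclins with CDK4 or CDK6 phosphorylate the RB proteins in G1, which frees E2F transcription factors to switch on the genes of S phase. Cyclin E with CDK2 then drives entry into S phase, cyclin A acts in S and G2, and cyclin B with CDK1 starts mitosis. The CDC25 phosphatases activate the CDKs, the INK4 inhibitors bind CDK4 and CDK6, and the CIP/KIP inhibitors bind most cyclin and CDK pairs. Many genes of G2 and mitosis are held down in G1 by the DREAM complex, which contains the RB relatives p130 (RBL2) or p107 (RBL1) with E2F4 or E2F5.

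The siRNA pairs with LINC01133 at chr1:159976669-159976687 (GRCh38, plus strand), which lies in an exon of 3 of the 5 GENCODE v44 transcripts of the gene. The site and the siRNA guide strand are shown because the guide's seed, bases 2 to 8, can also pair with other RNAs, some of the members among them. Capitals mark the seed in the guide and the matching 8 bases in the site.
LINC01133 site: gaagttacctgAGAATGGA
LINC01133a guide strand: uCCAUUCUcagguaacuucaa

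LINC01133 itself fell from 823 ± 12.8 normalised counts in control to 133 ± 4.68 in knockdown libraries (SD, n = 3 each), which is 16.2% of control. A normalised count is a read pair count scaled to a library of 32360000 counts with TMM factors. The 6 libraries held 27742562 to 37551194 counts on genes. Within groups, library pairs differed by a chi-square per degree of freedom of 2.22 to 3.78, except for the pairs of control library 2 with control libraries 1 and 3, at 12.0 and 13.2. Control library 2 therefore stands apart from the other control libraries, and results that rest on it are also given without it. The epithelial keratins were strongly expressed, KRT8 at 104551 normalised counts in control cells, but so were stromal collagens, and EPCAM was low at 13.6. The summed level per length of the 7 epithelial markers was 1569 to 1659 in control and 994 to 1031 in knockdown libraries, and that of the 5 leukocyte markers, nearly all of it CD14, was 30.0 to 33.7 and 15.5 to 16.8. The 7 stromal markers summed to 921 to 995 and 930 to 947, and the 4 endothelial markers to 7.72 to 7.88 and 5.42 to 5.77. COL1A1 and COL3A1, most of the stromal sum, were at 93.6% and 104% of control in knockdown cells. The other stromal markers were at 34.9% (PDGFRA) to 84.2% (DCN). KDR, most of the endothelial sum, was at 62.5% of control and CDH5 at 275%. The part of these markers in the results below was not tested.

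With edgeR's quasi-likelihood test and Benjamini-Hochberg adjustment over 15155 genes, 33 of the 52 tested members had an adjusted p under 0.05. That is 63.5% of the members, beside 48.3% of all genes tested. Here "rose" and "fell" mean this threshold. There were 16 members that rose and 17 that fell, beside 23.3% and 25.0% of all genes. Scaled by library size alone, without TMM factors, the split was 20 against 13, beside 4701 against 2939 over all genes. Without control library 2 it was 15 against 17, beside 3425 against 3760. With a fold change over 1.5 as well (called DE below), 8 members were higher and 1 was lower, 17.3% of the members together, beside 11.7% of all genes (5.30% higher and 6.43% lower). The DE members were CCNJ, CCNE1, CDKN1A, E2F5, CDC25A, CDK6, CCNL2 and CDKN2B, all higher in knockdown cells, and CCNA2, which was lower. The groups did not overlap for 35 members, or 67.3%, beside 57.3% of all genes. The median log2 fold change of the members was -0.012, with a range from -0.61 to 1.19, and that of all genes tested was 0.0032.

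**Figure D1:**
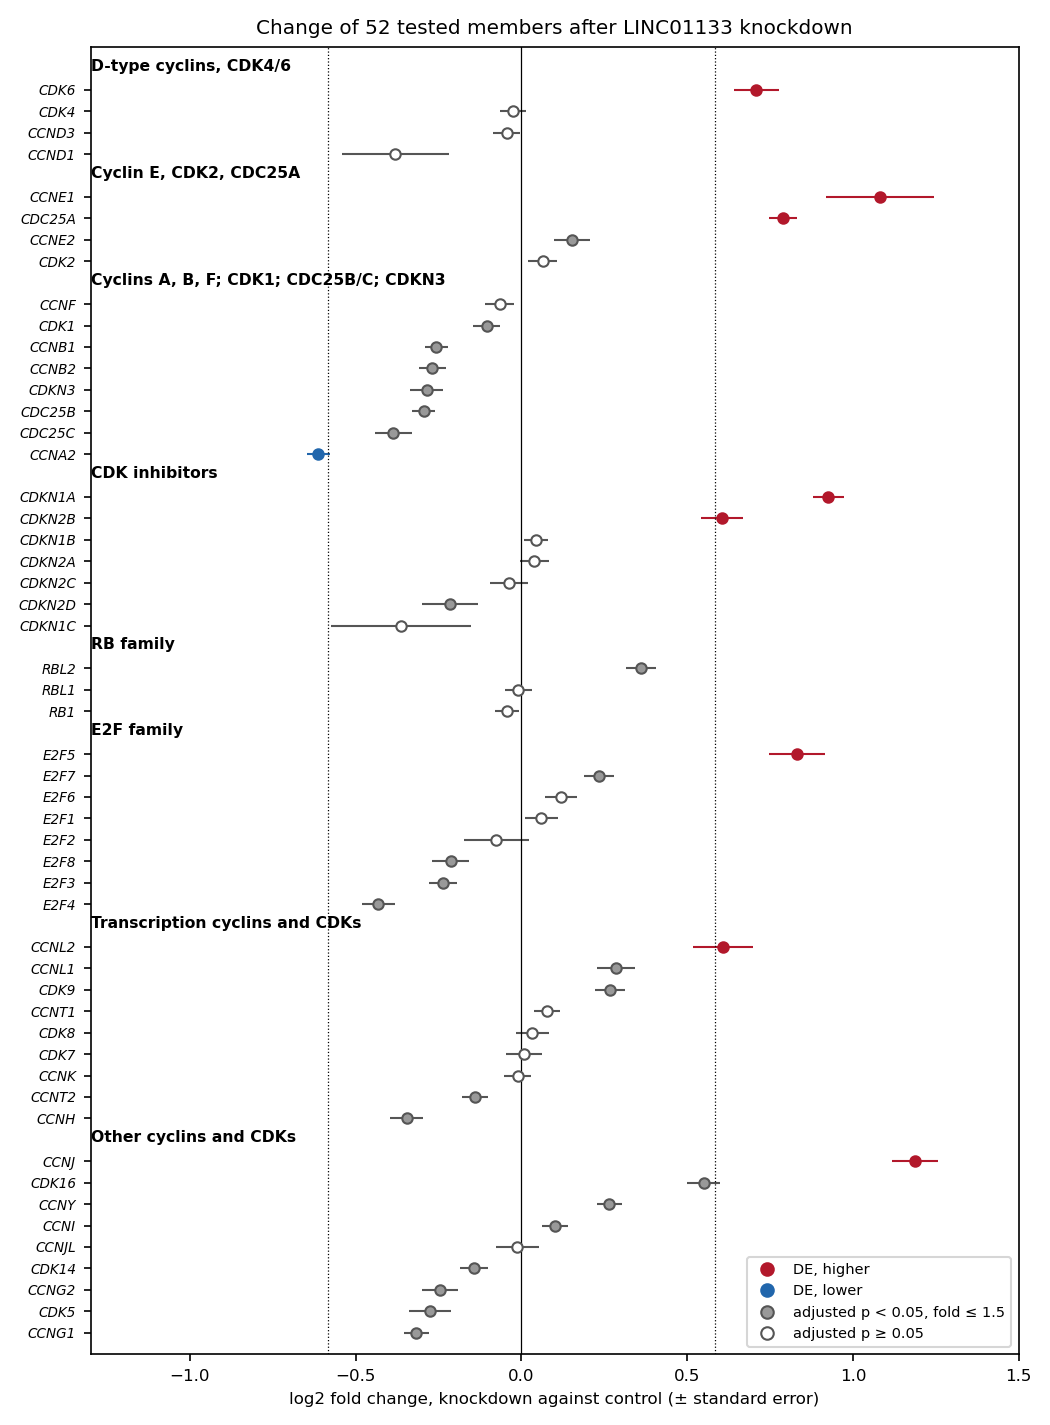
Log2 fold change, knockdown against control (x axis), of the 52 tested members, grouped by role (y axis), with bars for the standard error of the edgeR fit, filled points for an adjusted p under 0.05 (red or blue where also DE) and dotted lines at a fold change of 1.5. All 8 members of the S phase, G2 and mitosis group lie below 0 and all 4 members of the G1/S group lie above 0.

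The genes of S phase, G2 and mitosis shared 1 direction. Of their 8 genes (CCNA2, CCNB1, CCNB2, CCNF, CDK1, CDC25B, CDC25C and CDKN3), 7 fell and none rose, with a median log2 fold change of -0.28 and a range from -0.61 to -0.066. In bulk RNA, fewer cells in a phase and less RNA of these genes per cell cannot be told apart. All but CCNF had no overlap between the groups, which is 87.5% of these genes, beside 57.3% of all genes tested. The share that fell was also 87.5%, beside 25.0% of all genes tested.

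The largest difference in this group was that of CCNA2, which encodes cyclin A2, the A-type cyclin of dividing somatic cells (chr4:121816444-121823883, minus strand). It had 6606, 6623 and 6791 normalised counts in control and 4393, 4395 and 4306 in knockdown libraries. The knockdown libraries were tight and all well below the controls. CCNA2 fell by 0.61 on the log2 scale (SE 0.0349, adjusted p = 2.01e-08 by edgeR), and was the only member that was DE and lower. Its fold change sits close to the 1.5-fold limit. With library size alone as the scaling, the log2 fold change was -0.55 and CCNA2 was not DE.

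Both B-type cyclins, the partners of CDK1 in mitosis, fell less than CCNA2. CCNB1 had 10674, 10464 and 10603 normalised counts in control and 8949, 8966 and 8642 in knockdown libraries, a log2 fold change of -0.26 (SE 0.0344, adjusted p = 4.13e-05). For CCNB2, the control libraries had 3540.5, 3610.3 and 3625 and the knockdown libraries 2945, 3128 and 2866, a log2 fold change of -0.27 (SE 0.0408, adjusted p = 0.000121). The 2 genes thus changed by nearly the same factor. Per length, CCNB1 was the most abundant cyclin of the cycle, at 134 ± 1.36 counts per kilobase of exon and per 1000000 counts in control and 112 ± 2.32 in knockdown cells. On that scale CCNA2 went from 75.0 ± 1.15 to 49.1 ± 0.573. As a share of the summed level of CCNA2, CCNB1 and CCNB2, CCNA2 made up 30.0% ± 0.287 in control and 25.2% ± 0.263 in knockdown libraries. The share of CCNB1 was 53.8% ± 0.442 and 57.7% ± 0.281.

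CDK1, the kinase that cyclin B activates, had a small and less certain difference. Its control libraries had 7320.4, 7268 and 7630.3 normalised counts and its knockdown libraries 6641, 6803 and 7227. Knockdown library 3 came close to the lowest control library. CDK1 fell by 0.10 on the log2 scale (SE 0.0407, adjusted p = 0.0484), and with library size alone the value was -0.042 with an adjusted p of 0.433. CDK1 also missed the threshold when control library 1 or 3 or knockdown library 1 or 2 was left out, with adjusted p from 0.0669 to 0.246.

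The CDC25 phosphatases parted by phase. CDC25B and CDC25C, which activate CDK1 at the entry to mitosis, fell. CDC25B had 9939.8, 9589.6 and 9537 normalised counts in control and 7791, 7986 and 7921 in knockdown libraries (log2 fold change -0.29, SE 0.0350, adjusted p = 1.46e-05). CDC25C had 1170.1, 1103 and 1259 against 879.9, 906 and 920.1 (log2 fold change -0.39, SE 0.0546, adjusted p = 6.65e-05). CDC25A, which acts on CDK2 at the entry to S phase as well as on CDK1, rose. It had 1173, 1169 and 1233 normalised counts in control and 2041, 2112 and 2022 in knockdown libraries. With a log2 fold change of 0.79 (SE 0.0423, adjusted p = 1.27e-08), CDC25A had the smallest error among the DE members that were higher. Its share of the summed CDC25 level per length was 9.21% ± 0.322 in control and 17.8% ± 0.293 in knockdown libraries, and that of CDC25B was 79.5% ± 0.983 and 72.5% ± 0.145.

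CDKN3, a phosphatase that acts on CDK1 and CDK2, had 1718, 1846 and 1681 normalised counts in control and 1502, 1425 and 1366 in knockdown libraries. CDKN3 fell by 0.29 on the log2 scale (SE 0.0498, adjusted p = 0.000365). CCNF (cyclin F), which directs proteins to degradation in G2 and binds no CDK, was at -0.066 on the log2 scale (SE 0.0434, adjusted p = 0.231), and its groups overlapped.

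**Figure D2:**
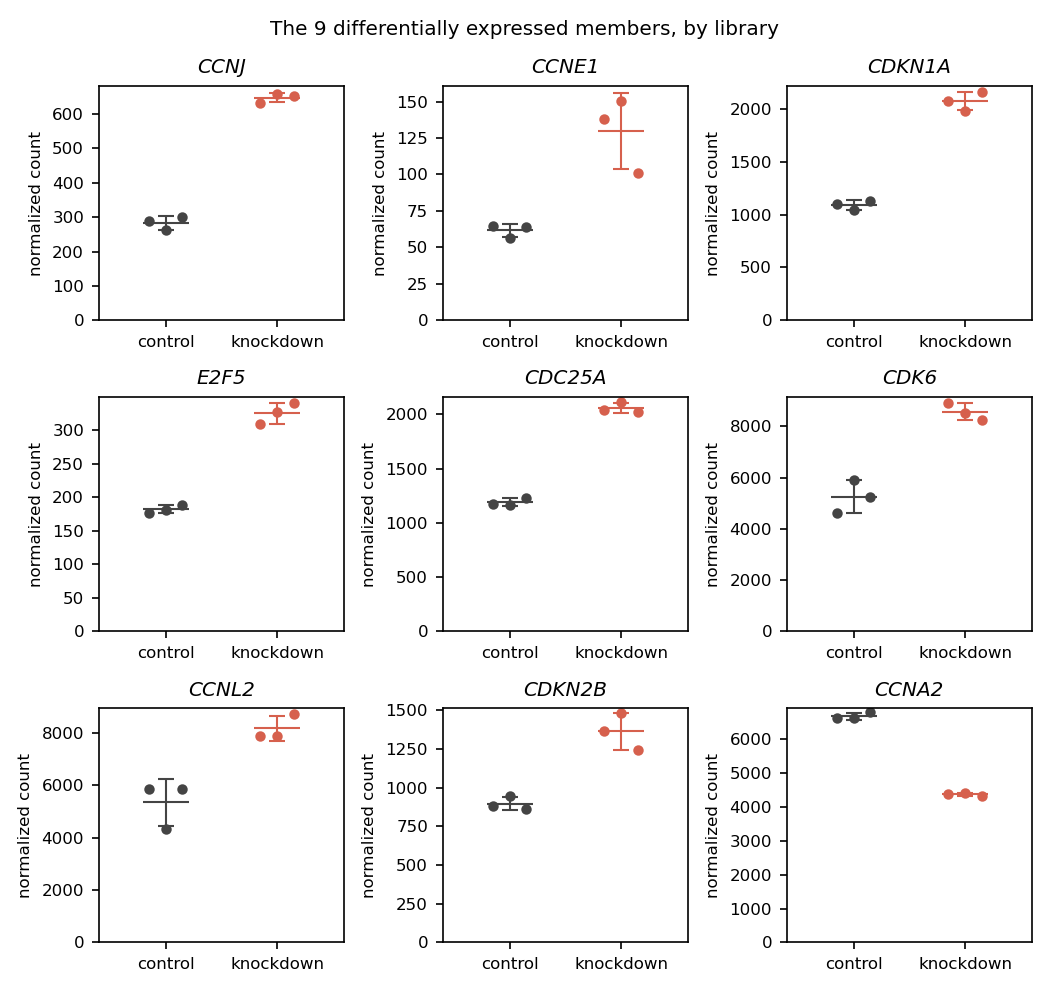
Normalised count (y axis) of the 9 DE members in each of the 3 control and 3 knockdown libraries, with points for libraries, lines for group means and bars for the SD. The groups do not overlap for any of the 9 genes, and CCNE1 is the one at the lowest counts, 56.3 to 151.

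The sequences around the transcription start were examined for the cell cycle homology region (CHR), the DNA word through which DREAM and the activator B-MYB act on G2 and mitosis genes. RefSeq promoter windows, from 250 bases before to 50 bases after a start (GRCh38.p14), were at hand for 46 members in 70 windows. The CHR was searched as TTTGAA or TTCGAA on both strands, and the latter reads the same on both. It was in a window of 6 of the 8 genes of S phase, G2 and mitosis (75%), beside 19.5% of all 27305 genes. These genes have more windows than most, and by window the shares were 53.3% of 15 beside 16.4% of 35116. CCAAT, often found at a fixed distance from a CHR, was in a window of all 8 genes and of 39.7% of all genes. Neither CCNA2 nor CCNB1 had TTTGAA or TTCGAA in its windows, and other forms of the CHR were not searched. No window held a CHR word among the 3 G1, 2 G1/S, 6 inhibitor and 9 transcription-related genes with windows. Elsewhere it was in a window of 1 of 3 RB family genes (RBL2, which rose), 1 of 6 E2F genes (E2F3, which fell) and 2 of 9 other cyclins and CDKs (CCNI, which rose, and CCNJL, which did not pass the test). Shown here are 30-base stretches of the promoters of the 5 genes of this group that have a CHR and fell, 1 each, read on the gene's strand, with the CHR in capitals; it may stand in either orientation.
CCNB2, chr15:59105105-59105134, plus strand: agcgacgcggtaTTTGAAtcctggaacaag
CDK1, chr10:60778453-60778482, plus strand: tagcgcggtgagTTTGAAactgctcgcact
CDC25B, chr20:3796260-3796289, plus strand: ctgctgttatttTTCGAAtatataaggagg
CDC25C, chr5:138331817-138331846, minus strand: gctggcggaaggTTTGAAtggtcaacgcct
CDKN3, chr14:54396825-54396854, plus strand: tcccgcgcgtctTTCAAAggtcttctagga

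The 6th gene, CCNF, also had the word but did not pass the test. A match is a description of the letters and not of a bound site.

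The 4 members grouped under the G1/S transition leaned the other way. Of CCNE1, CCNE2, CDK2 and CDC25A, 3 rose and none fell, with a median log2 fold change of 0.47. That is 75% that rose, beside 23.3% of all genes tested. This holds for these members only, and genes of replication outside the members leaned lower, as given below. CCNE1 (cyclin E1, chr19:29811991-29824312, plus strand) had 64.4, 56.3 and 64.3 normalised counts in control and 138, 151 and 101 in knockdown libraries. The knockdown libraries varied more than the controls, but all lay above them. CCNE1 rose by 1.08 on the log2 scale (SE 0.163, adjusted p = 0.000116). CCNE2 (cyclin E2) had far more reads, with 1820.4, 1825 and 2111 normalised counts in control and 2106, 2187 and 2105 in knockdown libraries. Its groups overlapped through control library 3, and the log2 fold change was 0.15 (SE 0.0547, adjusted p = 0.0345). Without control library 2, CCNE2 no longer passed the test (adjusted p = 0.0770) and 2 of the 4 genes rose. It also missed the threshold without control library 1 or any 1 of the knockdown libraries (adjusted p from 0.0593 to 0.141).

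Per length, cyclin E1 was a minor form. Its share of the summed level of both E-type cyclins was 5.44% ± 0.435 in control and 9.78% ± 1.65 in knockdown libraries, and CCNE2 made up the rest. CDK2, the kinase of both, had a difference of 0.064 on the log2 scale (SE 0.0433, adjusted p = 0.245), with 3554 to 3842 normalised counts in control and 3789.9 to 4072 in knockdown libraries. E2F sites were searched as TTTGGCGC, TTTCCCGC, TTTGCCGC or TTTCGCGC on both strands, and 6 of the 46 members with windows held one (13%), beside 3.99% of all genes. Of these 6, CDK1 and E2F3 fell, and RBL1 did not pass the test. The promoters of CDC25A, which rose, and E2F1 and E2F2, which did not pass the test, carry the same word, shown in capitals and read on the gene's strand.
CDC25A, chr3:48188443-48188472, minus strand: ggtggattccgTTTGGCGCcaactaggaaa
E2F1, chr20:33686387-33686416, minus strand: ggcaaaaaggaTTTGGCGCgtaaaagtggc
E2F2, chr1:23531257-23531286, minus strand: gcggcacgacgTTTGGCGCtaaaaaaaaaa

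Among the genes of G1 itself, CDK6 rose and the other tested genes did not pass the test. CDK6 (chr7:92604921-92836573, minus strand) had 4622, 5905 and 5232 normalised counts in control and 8934, 8541 and 8255 in knockdown libraries. CDK6 rose by 0.71 on the log2 scale (SE 0.0681, adjusted p = 2.22e-06), and by 0.80 without control library 2, the highest of the controls. CDK4, its close relative, had 3812, 3583 and 3815 against 3687, 3754 and 3574, with a log2 fold change of -0.025 (SE 0.0398, adjusted p = 0.625) and overlapping groups. CDK4 remained the more abundant of the pair per length, at 37.3 ± 1.33 in control and 36.7 ± 0.910 in knockdown cells, where CDK6 was at 13.3 ± 1.62 and 21.7 ± 0.860. CDK6 made up 26.2% ± 3.00 of their summed level in control and 37.1% ± 0.770 in knockdown libraries.

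The D-type cyclins that activate these kinases were represented almost wholly by CCND3. CCND3 had 1959, 1872 and 1862 normalised counts in control and 1812, 1888 and 1821 in knockdown libraries (log2 fold change -0.045, adjusted p = 0.387). CCND1, the D-type cyclin of many epithelial cells, was low here, with 75.7, 78.9 and 67.4 against 48.3, 66.0 and 56.7. Its groups did not overlap, but the log2 fold change of -0.38 (SE 0.161) had an adjusted p of 0.0674. The share of CCND1 in the summed D-type level per length was 4.50% ± 0.329 in control and 3.61% ± 0.468 in knockdown libraries, and CCND3 made up the rest. An exact two-sided permutation test of the difference of -0.898 percentage points gave p = 0.1, the smallest that 3 against 3 libraries can give.

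Of the 7 CDK inhibitor genes, CDKN1A and CDKN2B rose and CDKN2D fell, which is 42.9% passing the test, beside 48.3% of all genes. CDKN1A encodes p21, the inhibitor through which p53 stops the cycle (chr6:36676460-36687337, plus strand). It had 1098, 1041 and 1128 normalised counts in control and 2077, 1981 and 2156 in knockdown libraries, with all knockdown libraries far above the controls. On the log2 scale CDKN1A rose by 0.93 (SE 0.0475, adjusted p = 9.03e-09). Its relatives p27 (CDKN1B) and p57 (CDKN1C) did not pass the test. CDKN1B had 3933, 3899 and 3945 against 4076, 4154 and 3912, with a log2 fold change of 0.044 (SE 0.0371, adjusted p = 0.348). CDKN1C was low, at 26.2 to 46.2 normalised counts in the 6 libraries, with a log2 fold change of -0.36 (SE 0.211, adjusted p = 0.174).

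By level per length, the make-up of the CIP/KIP inhibitors therefore changed order. Per length, CDKN1B held 52.8% ± 0.754 of their summed level in control libraries and CDKN1A 45.2% ± 0.944. In knockdown libraries CDKN1A held 60.6% ± 1.64 and CDKN1B 38.3% ± 1.74. On this scale each control library had more CDKN1B than CDKN1A, and each knockdown library had more CDKN1A. The order rests on the exon lengths used, 9255 bases for CDKN1B and 2996 for CDKN1A. In normalised counts, not divided by length, CDKN1B was above CDKN1A in all 6 libraries. The differences of 15.4 percentage points for CDKN1A and -14.4 for CDKN1B each had p = 0.1 in the exact two-sided permutation test, the smallest this design allows. The share of CDKN1C was 2.02% ± 0.381 and 1.09% ± 0.133, a difference of -0.928 percentage points with the same exact p = 0.1.

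**Figure D3:**
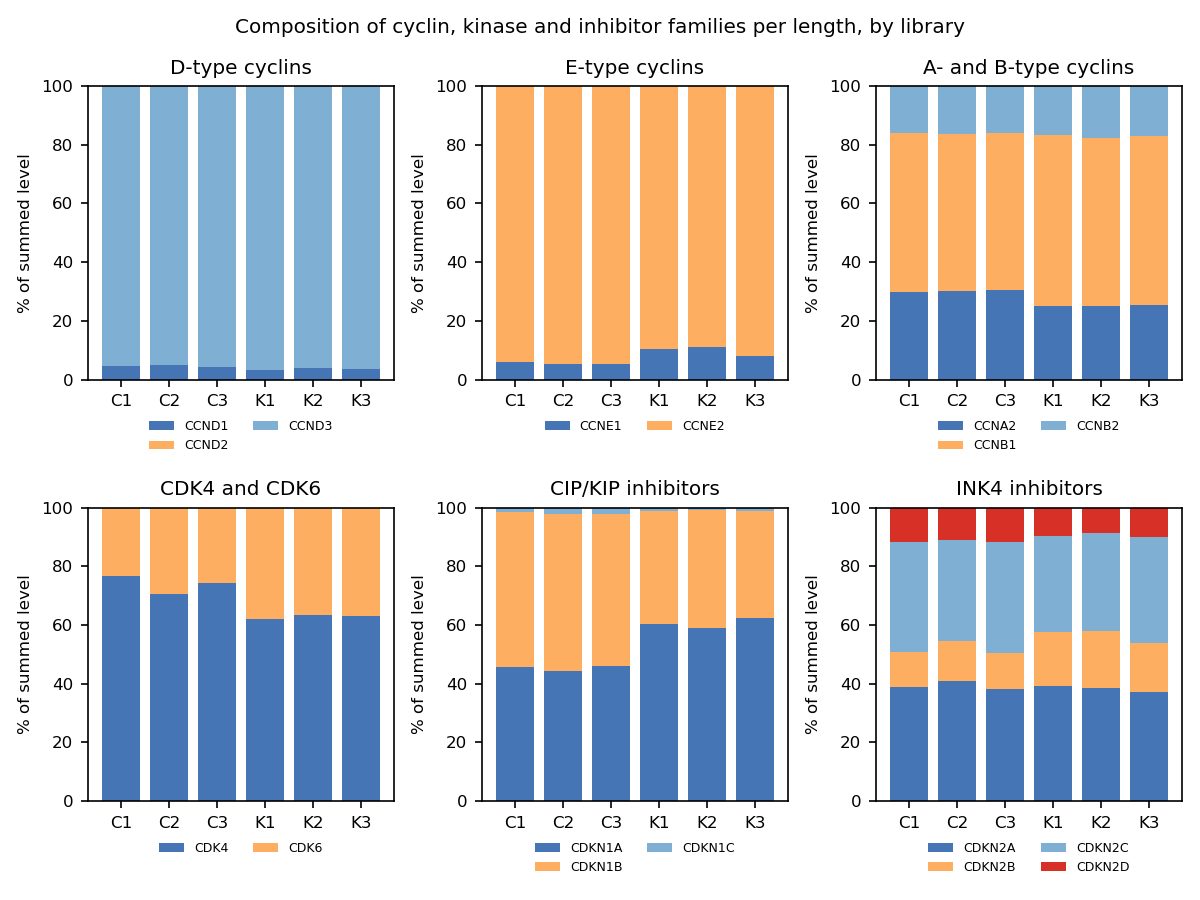
Share (y axis, percent) of each gene in the summed level per length of its family, stacked per control (C) and knockdown (K) library, for 6 families of members. CDKN1A goes from 45.2% to 60.6% of the CIP/KIP level and CDK6 from 26.2% to 37.1% of the CDK4 and CDK6 level.

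Among the INK4 inhibitors, which block CDK4 and CDK6, CDKN2B (p15) rose. It lies beside CDKN2A at chr9:22002903-22009305 (minus strand), and had 885, 946 and 862 normalised counts in control and 1368, 1482 and 1241 in knockdown libraries. Its log2 fold change was 0.61 (SE 0.0636, adjusted p = 4.87e-06), close to the 1.5-fold limit. Without control library 3 it was 0.58 and without knockdown library 2 it was 0.55, both just under that limit. CDKN2A, whose row adds up p16 and the unrelated protein p14ARF, had 2794, 2727 and 2604 against 2830, 2855 and 2658 (log2 fold change 0.039, adjusted p = 0.482). The neighbouring genes thus had different outcomes in the test, and the difference between them was not tested. CDKN2C (p18) was at -0.039 on the log2 scale (adjusted p = 0.603). CDKN2D (p19) had -0.22 with an adjusted p of 0.0498, the member nearest to the threshold, and passed in no leave-out of a library but that of control library 2. CDKN2B made up 12.7% ± 0.947 of the summed INK4 level per length in control and 18.2% ± 1.33 in knockdown libraries, while CDKN2A held 39.3% ± 1.35 and 38.3% ± 1.14.

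In the RB family, RBL2 (p130), the member known for resting cells, rose, and RB1 and RBL1 (p107) did not pass the test. RBL2 had 4633, 4365 and 4936 normalised counts in control and 5892, 5863 and 6134 in knockdown libraries. RBL2 rose by 0.36 on the log2 scale (SE 0.0454, adjusted p = 2.44e-05), short of the 1.5-fold limit. RB1 had 8131, 8532 and 8454 against 7983, 8184 and 8186 (log2 fold change -0.045, SE 0.0356, adjusted p = 0.325), and RBL1 had a log2 fold change of -0.0096 (SE 0.0401, adjusted p = 0.863). RBL2 passed RBL1 by a wider margin in knockdown cells, with 29.5% ± 0.461 of the summed level per length of the 3 genes against 24.1% ± 1.15 in control. RB1 remained the most abundant, at 54.8% ± 1.22 and 50.5% ± 0.399.

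The E2F genes went in both directions, with 2 of 8 higher, 3 lower and 3 not passing the test. That is 62.5% passing, beside 48.3% of all genes tested. Of the activators, E2F1 differed by 0.059 on the log2 scale (adjusted p = 0.349) and E2F2 by -0.076 (adjusted p = 0.557), while E2F3 fell by 0.24 on the log2 scale (SE 0.0417, adjusted p = 0.000395). E2F4 and E2F5, the E2Fs of the DREAM complex, moved apart. E2F4 (chr16:67192155-67198918, plus strand) had 1731, 1548 and 1655 normalised counts in control and 1222, 1174 and 1268 in knockdown libraries, a log2 fold change of -0.43 (SE 0.0506, adjusted p = 1.32e-05).

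E2F5 (chr8:85177154-85217158, plus strand) had 177, 181 and 189 normalised counts in control and 309, 326 and 340.4 in knockdown libraries, which do not overlap. Its log2 fold change was 0.83 (SE 0.0858, adjusted p = 4.22e-06). Per length it stayed far below E2F4, at 0.939 ± 0.0301 in control and 1.67 ± 0.0821 in knockdown cells, where E2F4 was at 14.1 ± 0.793 and 10.5 ± 0.406. Only 22.4% of the stranded reads at E2F5 were on its own strand. The opposite-strand reads, left out of the strand-specific counts, were at 836 to 873 normalised counts in control and 869 to 959 in knockdown libraries. With the unstranded counts E2F5 rose by 0.77 (adjusted p = 1.78e-05). Those counts hold both strands only outside regions of overlap, so this value is not the change of all reads of both strands.

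The late repressors E2F7 and E2F8, which act after S phase has begun, also parted. E2F7 rose by a log2 fold change of 0.23 (SE 0.0458, adjusted p = 0.000886) and E2F8 fell by 0.21 (SE 0.0558, adjusted p = 0.00637). E2F6, a repressor that works without RB, had a log2 fold change of 0.12 (SE 0.0487, adjusted p = 0.0587). As shares of the summed E2F level per length, E2F1 was the most abundant at 31.2% ± 1.502 in control and 33.9% ± 0.605 in knockdown libraries. E2F4 was second in control libraries with 17.4% ± 0.481, and its share in knockdown libraries was 13.5% ± 0.255, near those of E2F8 (13.2% ± 0.665), E2F7 (12.9% ± 0.266) and E2F3 (12.8% ± 0.199).

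The cyclins and kinases of transcription served as members that do not follow a phase. CCNL2 (cyclin L2, which works in splicing) had 5872, 4319 and 5864 normalised counts in control and 7890.1, 7895 and 8731 in knockdown libraries. Control library 2 was low, and the log2 fold change of 0.61 (SE 0.0905, adjusted p = 0.000102) was 0.47 without it and 0.56 without knockdown library 3, neither of them DE. Its relative CCNL1 rose by a log2 fold change of 0.29 (SE 0.0570, adjusted p = 0.00104), and by 0.22 without control library 2. CDK9, the kinase of the elongation factor P-TEFb, rose by 0.27 (adjusted p = 0.000329), while its partner CCNT2 fell by 0.14 (adjusted p = 0.00998, and 0.127 with library size alone) and its main partner CCNT1 had 0.077 (adjusted p = 0.121). CCNT2 missed the threshold without knockdown library 2 (adjusted p = 0.0528). CCNH (cyclin H) of the CDK-activating kinase fell by 0.35 (SE 0.0490, adjusted p = 6.67e-05), and its kinase CDK7 had 0.0064 (adjusted p = 0.933). Reads on the other strand made up 28.0% of the stranded reads at CCNH. CDK8 of the Mediator complex (0.033) and CCNK, the partner of CDK12 and CDK13 (-0.012), did not pass the test.

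The other cyclins and CDKs held the largest difference of all members. CCNJ (cyclin J, chr10:96043394-96060870, plus strand), a little studied cyclin, had 288, 261 and 302 normalised counts in control and 632, 657 and 652 in knockdown libraries. It rose by 1.19 on the log2 scale (SE 0.0700, adjusted p = 2.75e-08), to 228% of control. Its relative CCNJL had 692 ± 60.1 and 685 ± 5.60 (log2 fold change -0.012, adjusted p = 0.890). CDK16, a kinase activated by cyclin Y, had 3510.2, 2999.8 and 3309 against 4903, 4746 and 4729. The log2 fold change of CDK16 was 0.55 (SE 0.0507, adjusted p = 1.56e-06), and 0.49 without control library 2. CCNY, the cyclin Y gene, rose by a log2 fold change of 0.27 (SE 0.0379, adjusted p = 7.25e-05). CDK14, another partner of cyclin Y, fell by 0.14 (SE 0.0424, adjusted p = 0.0127). With library size alone CDK14 was at -0.082 (adjusted p = 0.140), and without control library 3, knockdown library 1 or knockdown library 2 its adjusted p was 0.0599 to 0.0711. CCNG1, a p53 target and among the most abundant members, fell from 7147 ± 231 to 5736 ± 148 normalised counts (log2 fold change -0.32, SE 0.0385, adjusted p = 1.75e-05). CCNG2, a cyclin of resting cells, fell by 0.25 (adjusted p = 0.00186) and CDK5, a kinase best known from neurons, by 0.28 (adjusted p = 0.00251). CCNI rose by 0.10 (adjusted p = 0.0445), and missed the threshold when any 1 library other than control library 2 was left out (adjusted p from 0.0578 to 0.177).

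The seed of the siRNA was looked up in the 3′ untranslated regions (UTRs) of the members, as the 7-base word AGAATGG or, with an A after it, the 8-base word AGAATGGA. The 7-base word was in the 3′ UTR of 11 of 52 tested members (21.2%), beside 17.1% of 12538 genes tested, and the 8-base word in 5 (9.62%), beside 5.77%. Of the 11, 5 fell and 2 rose. Of the 41 members without the word, 12 fell and 14 rose. Among all genes tested, with or without the word, 25.0% fell and 23.3% rose. Over all genes tested, the median log2 fold change was -0.095 with the 7-base word, -0.15 with the 8-base word and 0.0014 without, and genes with the word had a longer median 3′ UTR (3303 against 1098 bases). CCNA2 is among the 5 members with the 8-base word, and so is CDK6, which rose. The other members with it, CCNT2 and CDK14, fell, and CCNK had a log2 fold change of -0.012. The part of the seed in these differences was not tested. Shown here are the sites of the 3 members that span the range of fold changes, read on the gene's strand, with the 8-base word in capitals.
CCNA2, chr4:121816895-121816924, minus strand: ccagggttctcAGAATGGAataaatatccc
CCNK, chr14:99510890-99510919, plus strand: gcagtatgggaAGAATGGAccgggcccctg
CDK6, chr7:92613317-92613346, minus strand: aggattttcaaAGAATGGAggttgctgcac

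The genes around the members in the cell cycle were read from the same fit. Of 178 such genes, 174 were tested, 35 rose and 64 fell, which is 56.9% passing the test beside 48.3% of all genes, and the median log2 fold change was -0.045. With library size alone as the scaling, 49 rose and 48 fell, beside 4701 and 2939 of all 15155 genes tested. The balance of the directions thus depends on the scaling, for all genes as well as for these. Without control library 2, 33 rose and 72 fell.

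Genes of replication leaned lower. Of all genes tested, 25.0% fell and 23.3% rose, and the counts of the lists below are to be read beside these shares. Counts with library size alone have another background, in which 2939 of all 15155 genes fell and 4701 rose. Of 23 genes of origin licensing and firing, 11 fell and 2 rose (median log2 fold change -0.12), and with library size alone 7 fell and 4 rose. Without knockdown library 1, 7 fell, and without control library 2, 13 fell. ORC1, the origin recognition subunit that comes and goes with the cycle, had 2088 ± 69.4 normalised counts in control and 1337 ± 19.4 in knockdown libraries (log2 fold change -0.64, SE 0.0416, adjusted p = 6.05e-08). GINS3, part of the replicative helicase, fell by 0.43 (adjusted p = 6.49e-06). Of 28 genes of DNA replication and nucleotide supply, 12 fell and 3 rose (median -0.060), and with library size alone 9 fell and 5 rose. RPA1, which coats single-stranded DNA, fell from 12532 ± 324 to 8114 ± 93.7 normalised counts (log2 fold change -0.63, SE 0.0353, adjusted p = 1.84e-08). TK1, the thymidine kinase of S phase, fell by 0.42 (adjusted p = 5.15e-07).

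Mitotic genes also leaned lower. Of 26 tested mitotic kinase and spindle genes, 15 fell and 2 rose (median -0.15), and with library size alone 12 fell and 4 rose. Only 1 rose when control library 2 or any 1 of the knockdown libraries was left out. MKI67, the proliferation marker Ki-67, had 28158, 38253 and 28225 normalised counts in control and 18617, 16501 and 19452 in knockdown libraries. Control library 2 was high, and the log2 fold change of -0.79 (SE 0.0977, adjusted p = 1.99e-05) was -0.63 without it. BIRC5 (survivin) fell by 0.42 (adjusted p = 9.18e-07). Of 24 genes of the anaphase-promoting complex and cyclin degradation, 11 fell and 3 rose (median -0.14), and with library size alone 9 fell and 5 rose. CDC27, a core subunit of the anaphase-promoting complex, fell from 7539 ± 214 to 4250.3 ± 74.0 (log2 fold change -0.83, SE 0.0371, adjusted p = 2.68e-09). BTRC, which helps to degrade CDC25A and the CDK1 inhibitor kinase WEE1, fell by 0.71 (SE 0.0450, adjusted p = 5.25e-08).

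**Figure D4:**
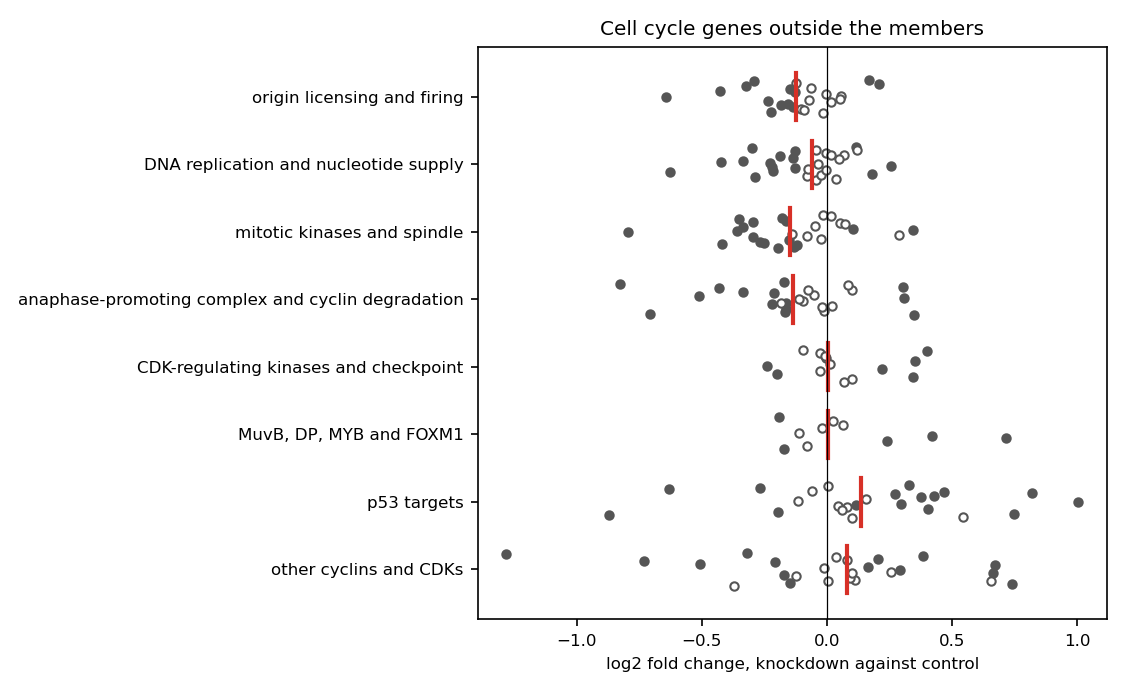
Log2 fold change, knockdown against control (x axis), of the tested genes of 8 lists around the members (y axis), with 1 point per gene, filled for an adjusted p under 0.05, and a red line for the median of each list. The medians run from -0.15 for mitotic kinases and spindle to 0.14 for p53 targets.

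The remaining lists leaned higher or stayed near the middle. Of 14 genes of CDK-regulating kinases and checkpoints, 4 rose and 2 fell (42.9% passing the test, beside 48.3% of all genes). They included WEE1, which holds CDK1 inactive, with 2729.7 ± 97.6 normalised counts in control and 3603 ± 113 in knockdown libraries (log2 fold change 0.40, SE 0.0413, adjusted p = 4.14e-06), and HUS1 of the DNA damage clamp (0.35, adjusted p = 0.00305). Of 10 genes of MuvB, DP, MYB and FOXM1, the partners of the E2F and RB proteins, 3 rose and 2 fell (50% passing the test). LIN37, a DREAM subunit, was higher by a log2 fold change of 0.71 (SE 0.145, adjusted p = 0.0012), at only 47.1 ± 1.40 against 77.4 ± 2.38 normalised counts. TFDP2, a dimer partner of the E2Fs, rose by 0.42 (adjusted p = 1.10e-05).

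Of 24 p53 target genes, 11 rose and 4 fell, with a median log2 fold change of 0.14, and with library size alone 15 rose and 3 fell. With the TMM factors 62.5% passed the test, beside 48.3% of all genes. Of the members, CDKN1A rose and CCNG1, a p53 target, fell, and neither is in this list. SESN2, a stress-induced sestrin, rose from 159.98 ± 15.4 to 321 ± 29.6 normalised counts (log2 fold change 1.00, SE 0.103, adjusted p = 4.17e-06). SESN1, its relative and also a p53 target, fell from 486 ± 27.0 to 268 ± 36.7 (log2 fold change -0.87, SE 0.0927, adjusted p = 5.66e-06). Of 25 other tested cyclins and CDKs, 7 rose and 7 fell (56% passing the test). CDK15 fell from 46.0 ± 5.43 to 18.9 ± 1.76 normalised counts (log2 fold change -1.28, SE 0.211, adjusted p = 0.000244). CDK10, the partner of cyclin M, rose by 0.74 (SE 0.0820, adjusted p = 8.18e-06), and by 0.63 without control library 2.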

How the data were processed

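RNA-sequencing counts from 6 libraries of 12Z cells were used. The authors aligned the 125 bp read pairs with STAR 2.7.6a (genome GRCh38.p13, annotation GENCODE v36), kept uniquely mapped reads, and deposited read pair counts per gene without normalization. The column for the reverse strand was used, which held 93.9% to 94.1% of the stranded counts. Rows that name no gene (13.7% to 15.0% of a library) were left out. Symbols, gene coordinates, exon lengths and 3′ UTRs (1 canonical transcript a gene) came from GENCODE v44, and promoter sequences from RefSeq. The annotation overlaps members with other genes on their strand only at CCND2 (12.5% of exon length), CDK9 (5.82%) and CDK14 (2.86%).

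Genes passing filterByExpr (minimum count 10) were compared in edgeR 4.0.16 under R 4.3.3 by its quasi-likelihood test, with TMM normalization and a model of group only. P-values were adjusted by Benjamini-Hochberg over the 15155 genes. DE also required a fold change over 1.5, the cutoff of the study. The common biological coefficient of variation was 0.0439. On data simulated for this comparison, edgeR recovered 200 of 200 genes changed by a log2 fold change of 1 or -1. There were 8 false calls among 14983 genes tested. In the simulation all genes had the same dispersion, few genes changed and no library stood apart. It therefore does not measure how well smaller changes are called, or calls with a library such as control library 2. Levels between genes were compared as counts per kilobase of exon and per 1000000 counts.

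The study describes the libraries as biological replicates, and the labels do not name separate cultures. If they were not separate, p-values measure only technical spread. No pair of libraries agreed within sampling noise. The members and gene lists were chosen with earlier results of these data known. Named with values in every library were DE members, the member with the largest change in each role group, CDKN1A and CCNA2. From each list around them, the 2 genes with the largest change among those passing the test were named, with fewer values. Values of other members were added for description. Alternatives were DESeq2 1.42.0, other scalings and filters, the unstranded counts, glmTreat, a replicate block, the longest annotated transcript as gene length, and leaving out each library.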

Additional observations from a re-analysis of the deposited data

Results flagged for a closer look

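Reads on the strand opposite to CDK4, which the strand-specific comparison leaves out, were above their level in control libraries. They came to 85.2, 95.8 and 100.5 normalised counts in control libraries (mean 93.8) and to 157, 151 and 149.8 in knockdown libraries (mean 152), a ratio of 1.62. These reads were 3.24% of the stranded reads at CDK4. In the unstranded counts, which hold both strands outside regions of overlap, CDK4 differed by 0.0040 on the log2 scale (edgeR's adjusted p = 0.950).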

How the results depend on the processing

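Of the 33 members that passed the test, none changed sign over 429 values from the alternatives other than glmTreat, and 36 of these no longer passed, most often for CDKN2D, CDK1, CCNI, CCNE2 and CDK14. The other 17 named genes kept sign and call in all 221. The 19 members that did not pass the test gained a call in 6 of 247 values and changed sign in 19, over 8 genes. With library size alone these were CCND3 (0.017), CDK4 (0.037), CDKN2C (0.023), RB1 (0.018), RBL1 (0.053), CCNK (0.050) and CCNJL (0.050), and with the unstranded counts CDK4 (0.0040) and CCNK (0.054). Leaving out each library in turn gave -0.10 to 0.0090 for CDKN2C, -0.029 to 0.018 for RBL1, -0.037 to 0.060 for CDK7, -0.034 to 0.0079 for CCNK and -0.052 to 0.056 for CCNJL. Library size alone moved the median log2 fold change of all genes to 0.065 and the share of DE genes that were higher from 45.2% to 55.9%. There were then 0 DE members lower, while the test of a difference from a 1.5-fold change itself (glmTreat) left 5 higher and 0 lower, and 578 DE genes in all instead of 1778. That test asks for more than a fold change at the limit. Leaving out each library gave 7 to 9 DE members higher and 1 lower in each case. The same replicate numbers did not deviate together (r = -0.015, 0.0049 and 0.057), so they do not pair the libraries. With a replicate block, the 8 higher and 1 lower DE members were the same genes, and 32 of the 33 members passed the test, all but CDKN2D. DESeq2 gave the same 9 DE members and called 30 of the 33. Precision at CCND1, CDKN1C and CCNE1 is limited by read numbers, at most 163 raw counts in any library.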

Other observations

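Outside the rule for named genes, and chosen after their values were seen, 6 more genes around the members were DE. Higher in knockdown cells were BTG2 (an antiproliferative p53 target, log2 fold change 0.75, adjusted p = 3.54e-05), BBC3 (the apoptosis inducer PUMA, 0.82, adjusted p = 0.00143), CABLES2 (0.66, adjusted p = 1.54e-07) and CDK5R1 (p35, the activator of CDK5, 0.67, adjusted p = 0.000721). Lower were TIGAR (a p53 target of sugar metabolism, -0.63, adjusted p = 0.000897) and CCNA1 (-0.73, adjusted p = 8.94e-08), all from the edgeR comparison. CCNA1, the germline relative of CCNA2, had 1034, 1014 and 1064 normalised counts in control and 619.6, 635 and 619 in knockdown libraries, so both A-type cyclins fell.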
